A study of Homo sapiens with 18 samples.

Results

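The 88 genes described here, called subunit genes below, carry the names of nuclear subunits of oxidative phosphorylation, the enzyme chain of the inner mitochondrial membrane. They were taken by name from the 57500 genes of the deposited table: names starting with NDUFA, NDUFB, NDUFC, NDUFS or NDUFV and a number, COX4 to COX8 with a letter A to C, UQCR, ATP5, or SDHA to SDHD. Of 238 names that matched, 147 pseudogene names and 3 antisense names were left out. Complex I holds 37 of the 88 genes, complex II 4, complex III 9, complex IV 17 and complex V 21. NDUFA4 and its paralog NDUFA4L2 were counted with complex IV, where the NDUFA4 protein resides. The names also take in ATP5S, ATP5IF1, COX7A2L and NDUFA4L2, which were classed as not structural, and the readthrough genes ATP5MF-PTCD1 and NDUFC2-KCTD14. All of these were kept in the counts and sums. The name rule does not reach COX4I1, NDUFAB1 or CYC1, which also encode subunits of this chain.

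The data are poly-A RNA-seq profiles of 18 libraries from SNU2535, NCI-H3122 and NCI-H2228, established lines of human non-small cell lung cancer that are all labelled WT and are known for EML4-ALK fusions. Plated cells of each line were exposed for 3 h to TRI-611 at 3 µM or to its vehicle DMSO, with 3 libraries for each of the 6 groups. TRI-611 is, by the series title, a molecular glue that degrades the receptor tyrosine kinase ALK and enters the brain. Each condition rests on 1 line at 1 dose and 1 time. The labelled lung carcinoma identity was checked against markers in the DMSO libraries. The epithelial gene EPCAM averaged 409, 666 and 121 TPM and the lung lineage gene NKX2-1 351, 125 and 83.1 TPM in SNU2535, NCI-H3122 and NCI-H2228. CDH1 was low in NCI-H2228, at 5.65 TPM on average. SFTPB and NAPSA were near absent in NCI-H3122, at 0.0649 and 0.0848 TPM. Of 3 markers of other cell types, PTPRC (leukocytes) stayed at or below 0.107 TPM, PECAM1 (endothelium) averaged 6.43, 0.072 and 2.42 TPM, and COL1A1 (fibroblasts) averaged 135, 12.3 and 380 TPM. Their part in the results on subunit genes was not tested. In such bulk RNA, fewer cells of a type and less RNA per cell cannot be told apart.

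As background, complex I takes electrons from NADH and complex II from succinate. Both pass them through coenzyme Q to complex III and through cytochrome c to complex IV, which reduces oxygen. Complexes I, III and IV pump protons, and complex V uses the gradient to make ATP. Complex II is encoded wholly in the nucleus, whereas the other complexes also need subunits encoded by mitochondrial DNA. NRF1, GABPA, YY1 and ESRRA are transcription factors known to act on the promoters of nuclear subunit genes, PGC-1 family coactivators such as PPARGC1A, PPARGC1B and PPRC1 work with them, and MYC is a further known regulator of mitochondrial genes.

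Promoters of 5 genes on which the results below turn are shown because they differ in the letters bound by those factors. RefSeq (GRCh38.p14) gave a window of 300 bases, from 250 before to 50 after the first listed start, for 70 of the 88 genes. The letters searched on both strands were GCGCA and GCGC separated by any 1 base for NRF1, CCGGAAG for GABPA, AANATGGCG for YY1 and CACGTG for the E-box that MYC and related factors bind. The stretches are printed 5′ to 3′ on the strand of the gene, with matches to the NRF1 and GABPA letters, on either strand, in capitals. They lie at chr19:29213152-29213231 (minus strand, UQCRFS1), chr11:112086743-112086872 (plus, SDHD), chr5:218140-218319 (plus, SDHA), chr12:120438033-120438112 (plus, COX6A1) and chr21:42893229-42893308 (plus, NDUFV3).
UQCRFS1: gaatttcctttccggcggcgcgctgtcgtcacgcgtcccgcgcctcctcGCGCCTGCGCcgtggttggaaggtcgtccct
SDHD: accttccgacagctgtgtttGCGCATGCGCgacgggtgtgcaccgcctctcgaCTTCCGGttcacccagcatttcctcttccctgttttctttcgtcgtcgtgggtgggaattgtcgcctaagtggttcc
SDHA: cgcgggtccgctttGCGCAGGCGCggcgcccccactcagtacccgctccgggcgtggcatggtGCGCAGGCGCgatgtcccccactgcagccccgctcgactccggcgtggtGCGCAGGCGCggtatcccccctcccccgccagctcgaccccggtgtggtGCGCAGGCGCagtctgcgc
COX6A1: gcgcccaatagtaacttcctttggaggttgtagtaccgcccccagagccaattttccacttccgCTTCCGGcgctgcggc
NDUFV3: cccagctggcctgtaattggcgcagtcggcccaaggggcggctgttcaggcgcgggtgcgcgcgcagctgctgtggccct
The SDHA stretch holds 4 matches to the NRF1 letters, at -166, -117, -68 and -19 from the start, and SDHD holds 1 match for NRF1 at -110 and 1 for GABPA at -77. UQCRFS1 has the NRF1 letters at -31 and COX6A1 the GABPA letters at -16. Both also hold the YY1 letters after the start, at 29 and 11, outside the printed stretches. No match for any of the 4 motifs was found in the 300 bases of NDUFV3, which says only that these letters are not in that window. The RefSeq starts used for these genes lie inside their spans in the GENCODE 29 annotation, for NDUFV3 well inside (42879644 to 42913304). Sequence at other starts was not searched.

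Across the 70 subunit genes with a window, the NRF1 letters were in 17 (24.3%), against 8.58% of the windows of 15843 protein-coding genes. GABPA letters were in 19 (27.1%) against 14.2%, YY1 letters in 16 (22.9%) against 4.81%, and the E-box in 7 (10%) against 8.88%. The median GC content was 61% in the subunit windows and 62.7% in the protein-coding ones. By complex, the NRF1 letters were in 6 of 32 windows of complex I, 2 of 3 of complex II, 4 of 7 of complex III, 1 of 14 of complex IV and 4 of 14 of complex V. YY1 letters were in 10 of the 32 windows of complex I, 1 of 3 of complex II, 3 of 7 of complex III and 1 of 14 in each of complexes IV and V. A match is a description of the sequence and not a measured binding site.

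Levels are given in TPM, a transcript abundance scaled to gene length and to a fixed sum per library. Of the 88 genes, 81 passed the filter (3 or more of a line's 6 libraries reaching 1 TPM) in at least 1 line and 79 in all 3. The 7 that stayed below 1 TPM in every library were COX6A2, COX7A1, COX7B2 and COX8C, isoforms known from muscle, testis or other tissues, ATP5MGL, and the readthrough genes ATP5MF-PTCD1 and NDUFC2-KCTD14. COX6A2 and COX7B2 were listed at 0 in all 18 libraries. COX6B2, an isoform known from testis, passed the filter in SNU2535 alone, at 1.34 ± 0.209 TPM (SD, n = 3) with DMSO. Only these 3 DMSO libraries reached 1 TPM. It thus entered the SNU2535 response test and the comparison of DMSO levels through the group where it was highest. The most abundant subunit transcripts with DMSO were those of ATP5F1B, the catalytic beta subunit of ATP synthase, at 852 TPM in SNU2535, 1219 in NCI-H3122 and 982 in NCI-H2228, and of COX8A, a small complex IV subunit, at 887, 982 and 843 TPM.

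The first comparison asked how the subunit genes differed after TRI-611 within each line. In SNU2535 they were higher on balance but by little. Of 81 tested, 16 rose and 1 fell (limma, adjusted p below 0.05), where 10.7% of all genes tested were called higher and 18.1% lower, 28.7% in all. The median difference over the tested members was 0.07 on the log2(TPM + 1) scale, against -0.02 over all genes. The groups did not overlap for 31 of the 81 members, against 43.9% of all genes. The rises were spread over the complexes: 3 of 36 tested members of complex I, 2 of 4 of complex II, 3 of 9 of complex III, 5 of 13 of complex IV and 3 of 19 of complex V. Among the 7 catalytic core genes of complex I and the 5 of the F1 head of complex V, none passed limma's threshold, nor an unadjusted p below 0.05 (0 of 7 and 0 of 5). At that unadjusted level, 2524 of all 16252 genes were higher and 3793 lower, and sets this small say little. With the replicate number as a block, 11 members were called in SNU2535 in place of 17. The number of calls was 6 without DMSO replicate 1, 6 without TRI-611 replicate 3, 10 without DMSO replicate 3, and 11 without either of the other TRI-611 libraries.

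**Figure D1:**
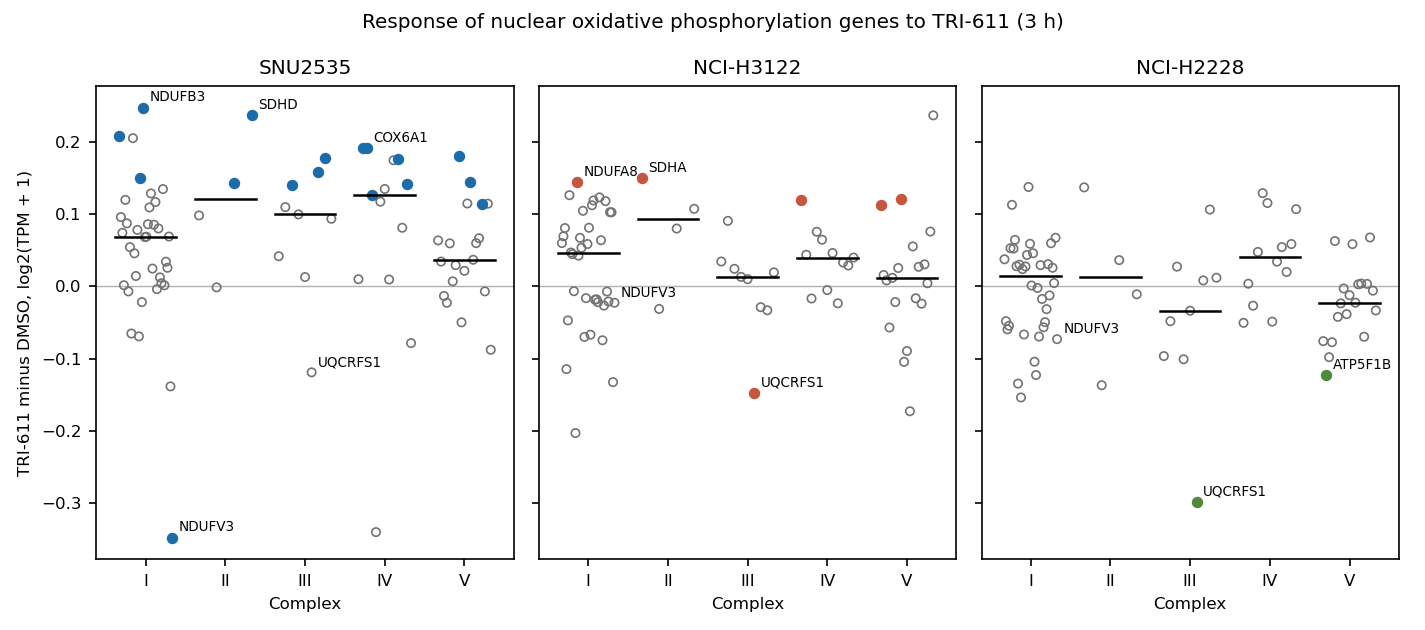
Difference between TRI-611 and DMSO libraries (log2(TPM + 1), vertical axis) of each tested subunit gene, grouped by complex (horizontal axis), in SNU2535, NCI-H3122 and NCI-H2228. Filled points passed limma's adjusted p below 0.05, open points did not, and black bars are medians per complex; 17 filled points lie in SNU2535, 6 in NCI-H3122 and 2 in NCI-H2228.

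NDUFV3 fell in SNU2535. It encodes an accessory subunit of the NADH-oxidizing module of complex I and lies on chromosome 21 (GRCh38, 42879644 to 42913304), with no exon shared with another gene. Its level was 34.0, 35.4 and 34.5 TPM in DMSO replicates 1 to 3 and 25.8, 27.0 and 28.2 TPM in the TRI-611 replicates. All TRI-611 libraries lay below all DMSO libraries, and the difference within batches 1, 2 and 3 was -0.38, -0.38 and -0.28. The fitted difference was -0.35 ± 0.05 (SE, log2 scale), with an adjusted p of 0.00122 (limma). In NCI-H3122 NDUFV3 measured 22.5 ± 1.03 TPM with DMSO and 22.2 ± 0.916 with TRI-611 (SD, n = 3), and in NCI-H2228 36.7 ± 2.10 and 34.8 ± 1.12. It did not pass the test in either line.

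SDHD, a membrane anchor of complex II (chromosome 11, 112086773 to 112120013), rose in SNU2535. It measured 92.0, 94.7 and 97.4 TPM in the DMSO libraries and 110, 114 and 111 TPM in the TRI-611 libraries, which do not overlap. The difference was 0.24 ± 0.04 (SE, log2 scale; limma adjusted p = 0.00215). Of its exon bases, 12.2% are shared with TIMM8B and another gene. NDUFB3, an accessory subunit of the membrane arm of complex I on chromosome 2 (201071433 to 201085750), measured 70.4, 65.6 and 75.2 TPM with DMSO and 86.3, 82.4 and 82.3 TPM with TRI-611. It rose by 0.25 ± 0.05 (SE; limma adjusted p = 0.0108), and all 3 treated libraries lay above the DMSO libraries. Opposite-strand FAM126B shares 19.8% of its exon bases.

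Complex IV held the most rises in SNU2535. COX5B, a nuclear subunit of cytochrome c oxidase on chromosome 2 (97646040 to 97648383), went from 133, 125 and 130 TPM to 152, 148 and 145 TPM, a rise of 0.19 ± 0.04 (SE; limma adjusted p = 0.00591). COX6A1, the ubiquitous isoform of subunit 6A on chromosome 12 (120438090 to 120440742), went from 259, 274 and 254 TPM to 300, 298 and 301 TPM (0.19 ± 0.04, SE; limma adjusted p = 0.00564). Neither gene's groups overlapped, and 13% of the exon bases of COX6A1 are shared with another gene on the same strand. The calls of NDUFV3, SDHD, NDUFB3, COX5B and COX6A1 held in each of the 16 alternatives run. The other 12 calls in SNU2535 lay between 0.11 and 0.21, and each was lost in at least 2 of the alternatives. They were NDUFA1, NDUFB11, SDHC, UQCRB, UQCRH, UQCRHL, COX6B1, COX7C, NDUFA4, ATP5MC2, ATP5MF and ATP5PD. With the replicate block the calls of SDHC, UQCRB, UQCRHL, COX7C, ATP5MC2 and ATP5PD were lost. NDUFA1 (0.21, limma adjusted p = 0.0467) shares 44.5% of its exon bases with RNF113A on the opposite strand. UQCRHL (0.18) is a near-identical copy of UQCRH (0.16), so reads could be split between them and both values are uncertain. COX6B2, close to the filter, measured 1.54, 1.34 and 1.13 TPM with DMSO and 0.998, 0.681 and 0.861 TPM with TRI-611, and it did not pass the test (-0.34 ± 0.17, SE).

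**Figure D2:**
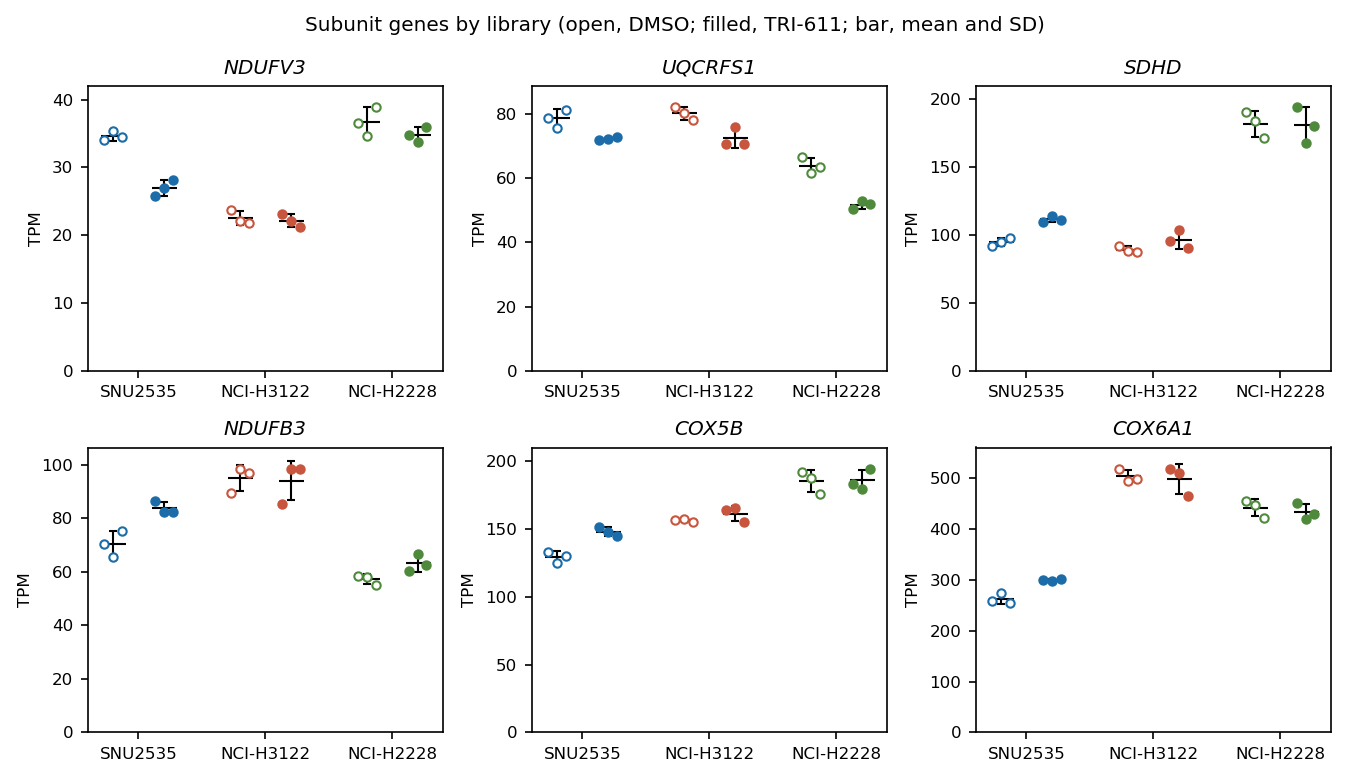
TPM (vertical axis, from 0) of 6 subunit genes in each of the 18 libraries, by line. Open points are DMSO and filled points TRI-611 libraries, and bars give the mean and SD of 3 libraries; NDUFV3 is lower after TRI-611 in SNU2535 (34.6 to 27.0 TPM), UQCRFS1 is lower in all 3 lines, and SDHD, COX5B and COX6A1 are separated from DMSO in SNU2535.

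In NCI-H3122, 5 of 79 tested members rose and 1 fell, where 34.1% of all genes were called (20.6% higher and 13.4% lower). The groups of 18 members did not overlap, against 48.1% of all genes. The rises were SDHA (0.15), NDUFA8 (0.14), ATP5MC2 (0.12), COX5A (0.12) and ATP5F1A (0.11), and the fall was UQCRFS1 (-0.15), with limma adjusted p between 0.0197 and 0.0414. ATP5MC2, one of the genes of the membrane c-ring of ATP synthase, was the only member that rose in SNU2535 and in NCI-H3122. With a replicate block none of the 6 NCI-H3122 calls remained (0 called), while without the block 12 members were higher and 2 lower at an unadjusted limma p below 0.05, against 4095 and 2593 of all 15311 genes. The direction depended on scaling: the median over members was 0.03 as deposited and -0.03 after median-ratio scaling, where 1 member was called higher and 9 lower. Without any 1 of the libraries the count of calls was 1 (DMSO replicate 2 or 3), 2 (the first DMSO or the second TRI-611 library), 3 (the first TRI-611 library) or 10 (the third).

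In NCI-H2228, no member rose and 2 of 80 fell, where 11.2% of all genes were called (4.8% higher and 6.4% lower). At an unadjusted p below 0.05 limma gave 5 members higher and 7 lower, against 2136 and 2238 of all 16806 genes. The groups of 17 members did not overlap, against 31.4% of all genes, and the median over members was 0.00 against 0.01 over all genes. UQCRFS1 fell, and so did ATP5F1B. ATP5F1B measured 1004, 982 and 959 TPM with DMSO and 913, 884 and 907 TPM with TRI-611, without overlap (-0.12 ± 0.03, SE; limma adjusted p = 0.0336). Its call was lost under 10 of the 16 alternatives, among them the replicate block and leaving out any 1 library other than DMSO replicate 3. With the block, or without any 1 of those libraries, UQCRFS1 was the 1 call left. The split also turned with scaling: 3 members were called higher and 1 lower after quantile normalization, and likewise without the mitochondrially encoded genes.

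UQCRFS1 encodes the Rieske iron-sulfur protein, the catalytic subunit of complex III that hands electrons to cytochrome c1 (chromosome 19, 29205321 to 29213541, minus strand). In NCI-H2228 it measured 66.4, 61.6 and 63.4 TPM with DMSO and 50.2, 53.0 and 52.0 TPM with TRI-611, a fall of 0.30 ± 0.04 on the log2 scale (SE; limma adjusted p = 0.00405) that held in all 16 alternatives. In NCI-H3122 it measured 82.0, 80.3 and 78.0 TPM with DMSO and 70.6, 75.7 and 70.5 TPM with TRI-611 (-0.15 ± 0.04, SE; limma adjusted p = 0.0318), a call lost in 8 of 16 alternatives. In SNU2535 the values were 78.7, 75.5 and 81.2 TPM and then 71.8, 72.1 and 72.6 TPM, a difference of -0.12 ± 0.04 (SE) at the edge of the threshold but not past it. The 3 treated libraries lay below the 3 DMSO libraries in every line.

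No member was called in the same direction in all 3 lines, against 7.3% of the 13186 genes tested in all of them. With the looser reading of groups that do not overlap in the same direction in all 3 lines, 15% of those genes qualified and 3 members did: UQCRFS1 lower, and SDHA and NDUFA2 higher. SDHA, the flavoprotein that oxidizes succinate (chromosome 5, 218241 to 256700), measured 160 ± 4.84 TPM with DMSO and 172 ± 3.79 with TRI-611 in SNU2535 (SD, n = 3). It measured 133 ± 4.11 and 148 ± 5.02 TPM in NCI-H3122, and 65.0 ± 1.59 and 71.6 ± 2.38 TPM in NCI-H2228. The differences were 0.10, 0.15 and 0.14 on the log2 scale, and the one in NCI-H3122 passed the test. NDUFA2, an accessory subunit of complex I that was singled out after its values were seen, differed by 0.09, 0.13 and 0.11 and passed the test in no line.

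Summed over the members of each complex, SNU2535 had 1.05 times the DMSO TPM after TRI-611 for complex I, 1.09 for complex II, 1.06 for complex III, 1.09 for complex IV and 1.04 for complex V. None of these 5 sums overlapped between the groups, and all 88 members together went from 11158 ± 179 to 11784 ± 68.4 TPM (SD, n = 3). In NCI-H3122 the total was 12996 ± 224 and 13314 ± 467 TPM, and in NCI-H2228 10318 ± 178 and 10217 ± 98.7 TPM, with overlap. The sum of complex V was 0.963 times the DMSO level in NCI-H2228, without overlap. Left-out pseudogene names summed to between 56.8 and 86.3 TPM per library.

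**Figure D3:**
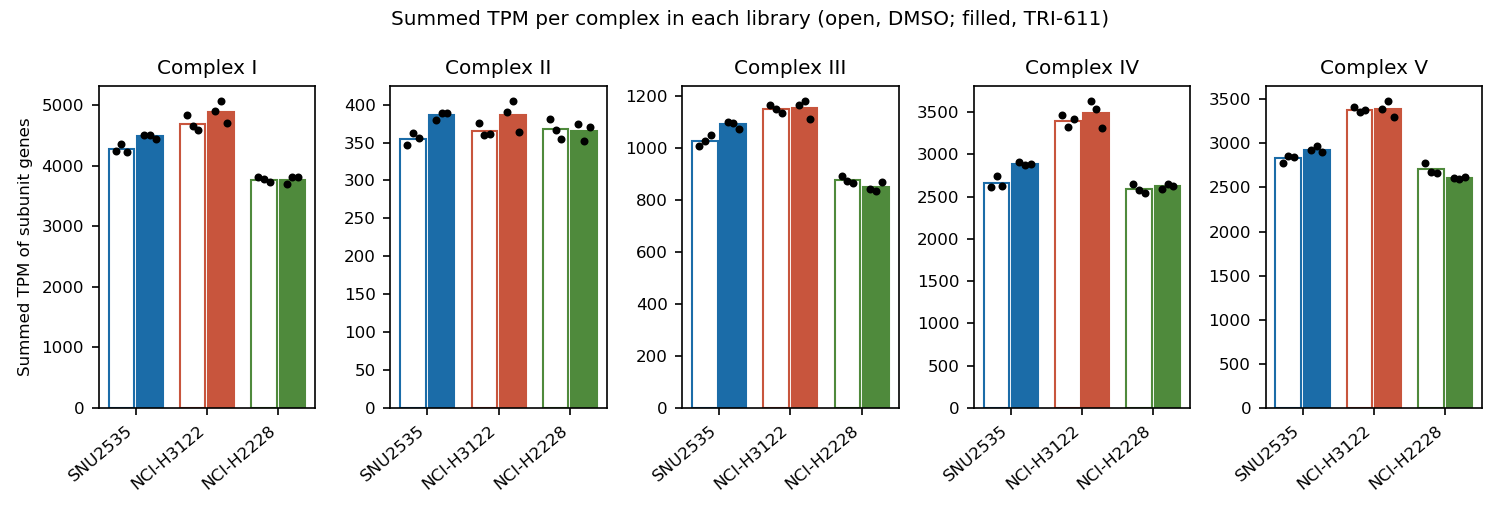
Summed TPM of the subunit genes of complexes I to V (vertical axes from 0, one panel per complex) by line. Bars are means of 3 libraries (open, DMSO; filled, TRI-611) and points single libraries; in SNU2535 the treated libraries lie above the DMSO libraries in all 5 panels, and NCI-H3122 has the tallest DMSO bars for complexes I, III, IV and V.

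Subunits encoded by mitochondrial DNA belong to the same complexes and were measured in the same libraries. None of these 13 genes passed limma's test in any line. At an unadjusted p below 0.05 there were 0 in SNU2535, 0 in NCI-H3122 and 8, all higher, in NCI-H2228. At that level, 2524 of all 16252 genes were higher and 3793 lower in SNU2535. The counts were 4095 and 2593 of 15311 in NCI-H3122, and 2136 and 2238 of 16806 in NCI-H2228. The median difference of the 13 genes was 0.06, 0.18 and 0.31 in SNU2535, NCI-H3122 and NCI-H2228. The share of total TPM for all mitochondrially encoded genes ran from 7.59% to 15.0% between libraries. Since TPM has a fixed sum, a library with a larger mitochondrial share has less TPM left for nuclear genes. The part of this in the nuclear values was tested only by rescaling without those genes, after which 17 members were called in SNU2535, 18 in NCI-H3122 (17 higher) and 4 in NCI-H2228.

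The next comparison asked whether the response of a member differed between lines, tested as an interaction. Between SNU2535 and NCI-H3122, 3 of 79 members differed, where 20.1% of all genes did (3.71% higher and 16.4% lower in SNU2535). NDUFV3 responded 0.33 lower in SNU2535 (-0.33 ± 0.07, SE; limma adjusted p = 0.00612), which held in all 22 alternatives, and COX6A1 (0.21) and UQCRH (0.19) responded higher there. Between SNU2535 and NCI-H2228, 4 of 80 differed against 10.6% of all genes (2.74% higher and 7.83% lower): NDUFV3 again lower in SNU2535 (-0.27), and COX6A1 (0.22), NDUFB7 (0.21) and ATP5F1B (0.16) higher. Between NCI-H3122 and NCI-H2228, 3 of 79 differed against 14.3% of all genes (8.99% higher and 5.34% lower): NDUFB8 (0.24), NDUFB7 (0.22) and COX5A (0.17), all higher in NCI-H3122. The NDUFB8 call was lost with the replicate block (limma adjusted p = 0.0538). NDUFB7 and NDUFB8 are accessory subunits of the membrane arm of complex I, and NDUFB8 shares 48.5% of its exon bases with HIF1AN and another gene. The medians of these 3 sets of differences over members were 0.03, 0.07 and 0.02, with ranges of 0.00912 (without NCI-H3122 TRI-611 replicate 3) to 0.0632, 0.0558 to 0.0877, and 0.00862 (without NCI-H3122 DMSO replicate 2) to 0.0591 when 1 library was left out. After median-ratio scaling, which moves the all-gene median of the first pair from -0.09 to 0.02, 24, 12 and 1 members differed.

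These counts also moved when 1 library was left out. For the first pair the count was 1 without SNU2535 DMSO replicate 1 and 5 without NCI-H3122 TRI-611 replicate 1. For SNU2535 and NCI-H2228 it was 1 without any 1 of the SNU2535 DMSO replicates, NCI-H2228 DMSO replicate 1 or NCI-H2228 TRI-611 replicate 2. It was 2 without replicate 2 of treated SNU2535 or replicate 3 of treated NCI-H2228, 0 without NCI-H2228 DMSO replicate 2 and 7 without NCI-H2228 DMSO replicate 3. For NCI-H3122 and NCI-H2228 it was 1 without NCI-H3122 DMSO replicate 2 or 3 or TRI-611 replicate 2.

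Levels of the subunit genes with DMSO were then compared between lines. Differences above 1 on the log2 scale (either direction) were found for 5 members between SNU2535 and NCI-H3122, 6 between SNU2535 and NCI-H2228 and 13 between NCI-H3122 and NCI-H2228, of the 81 tested, and for 5890, 5227 and 6861 of all 18233 genes tested. Within a line, 0 members differed that far after TRI-611, but few genes of any kind did: in SNU2535, 380 of all 16252 tested. Of 81 tested members, 29 were higher and 38 lower in SNU2535 than in NCI-H3122, where 76.1% of all genes were called (45.4% higher and 30.7% lower). The 29 include COX6B2, which passed the filter only through the SNU2535 DMSO libraries. Against NCI-H2228, 39 were higher and 27 lower in SNU2535, where 75% of all genes were called (32.4% higher and 42.6% lower). In NCI-H3122, 46 were higher and 26 lower than in NCI-H2228, where 79.3% of all genes were called (30% higher and 49.3% lower). The share of members called in either direction was near that of all genes. The groups of 68, 70 and 74 members did not overlap, against 78.3%, 76.4% and 80.7% of all genes. The medians over members were -0.05, 0.10 and 0.21 for these 3 pairs, against 0.16, -0.11 and -0.25 over all genes. Median-ratio scaling moves the all-gene medians to 0.01, -0.03 and -0.02 and the member medians to -0.24, 0.20 and 0.51. Relative to all genes the members lay at -0.21, 0.21 and 0.46 as deposited and at -0.25, 0.23 and 0.52 after that scaling, which changed the splits to 23 higher and 49 lower, 44 and 24, and 58 and 12. After quantile normalization they lay at -0.10, 0.22 and 0.31. The pairs share lines, so the 3 comparisons are not independent. Without NCI-H3122 DMSO replicate 1 the first median was -0.02, and without NCI-H2228 DMSO replicate 1 the second was 0.15.

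**Figure D4:**
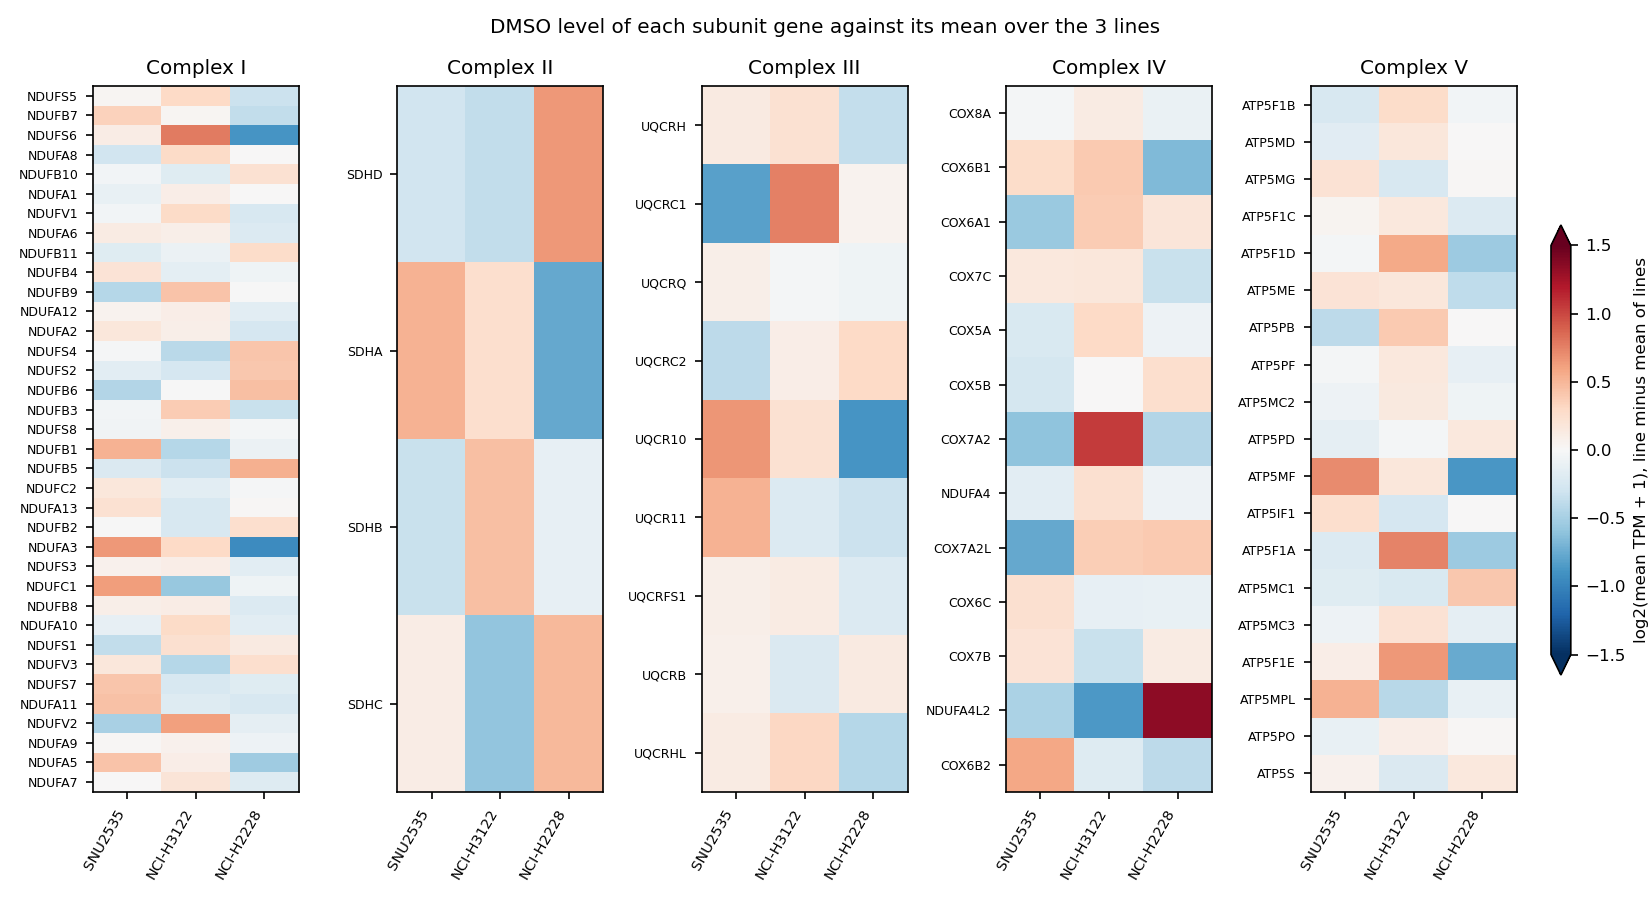
Mean DMSO level of each subunit gene that reached 1 TPM in at least 1 line, as log2(mean TPM + 1) minus its mean over the 3 lines (colour scale, clipped at both ends), with genes in rows ordered by level and lines in columns, one panel per complex. Red is above and blue below the mean of lines; the F1 head genes ATP5F1A, ATP5F1D and ATP5F1E are red in NCI-H3122, and NDUFS6, NDUFA3, UQCR10 and ATP5MF are blue in NCI-H2228.

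Complex II had nearly equal sums in the 3 lines, with unlike makeup. The sums with DMSO were 355 ± 8.30, 366 ± 8.93 and 367 ± 13.0 TPM (SD, n = 3), listed as SNU2535, NCI-H3122, NCI-H2228, with overlap in every pair. SDHA, the flavoprotein, measured 160, 133 and 65.0 TPM in that order of lines. SDHB, the iron-sulfur subunit, measured 73.0 ± 3.01, 127 ± 2.49 and 84.9 ± 3.48 TPM and was highest in NCI-H3122. The membrane anchors were highest in NCI-H2228: SDHC measured 27.1 ± 0.657, 16.3 ± 0.428 and 35.6 ± 1.84 TPM, and SDHD 94.7 ± 2.72, 89.3 ± 2.34 and 182 ± 9.62 TPM. SDHA was 1.29 ± 0.04 (SE, log2 scale) higher in SNU2535 than in NCI-H2228 (limma adjusted p = 1.16e-09), and SDHD differed by -0.93 ± 0.04 (limma adjusted p = 3.59e-08). Of the 12 pairwise differences of the 4 genes, the test called all but that of SDHD between SNU2535 and NCI-H3122 (0.08). Most genes were called in these comparisons: 76.1% between SNU2535 and NCI-H3122, 75% between SNU2535 and NCI-H2228 and 79.3% between NCI-H3122 and NCI-H2228.

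Complex I summed to 4285 ± 70.3, 4699 ± 123 and 3775 ± 37.8 TPM, listed as SNU2535, NCI-H3122, NCI-H2228, without overlap between any lines. Among its core genes, NDUFV2, a flavoprotein subunit with an iron-sulfur centre, was lowest in SNU2535 (13.7 ± 1.72 TPM) and highest in NCI-H3122 (30.5 ± 1.13), with 17.7 ± 1.67 in NCI-H2228. Among the accessory genes, NDUFS6 on chromosome 5 (1801400 to 1816605) measured 432 ± 2.47, 685 ± 14.2 and 216 ± 8.57 TPM, a difference of 1.66 ± 0.03 (SE) between NCI-H3122 and NCI-H2228. NDUFA3 measured 64.8 ± 5.51, 50.5 ± 1.14 and 20.9 ± 0.442 TPM and was 1.58 higher in SNU2535 than in NCI-H2228. NDUFC1, in contrast, was highest in SNU2535 and lowest in NCI-H3122, at 57.2 ± 3.45, 24.3 ± 1.01 and 34.9 ± 2.83 TPM. NDUFB1 followed the same order, with 68.8, 35.1 and 44.7 TPM. NDUFB5 and NDUFB6, at 69.4 and 99.5 TPM, were highest in NCI-H2228.

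Complex III summed to 1027 ± 21.8, 1149 ± 15.1 and 877 ± 13.0 TPM. UQCRC1, a core protein on chromosome 3 (48599002 to 48610976), measured 92.9 ± 2.01 TPM in SNU2535, 277 ± 2.86 in NCI-H3122 and 170 ± 7.05 in NCI-H2228, and the log2 difference between the first pair of lines was -1.57 ± 0.03 (SE; limma adjusted p = 1.87e-10). UQCR10, a small subunit, was instead highest in SNU2535, at 179 ± 4.36 TPM in SNU2535, 132 ± 3.07 in NCI-H3122 and 60.4 ± 5.58 in NCI-H2228. UQCRFS1 stood at 78.5, 80.1 and 63.8 TPM, and its level did not differ between SNU2535 and NCI-H3122 beyond the spread (-0.03 ± 0.04, SE). Members of 1 complex thus differed in the order of the lines.

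Complex IV summed to 2660 ± 69.0, 3400 ± 73.8 and 2589 ± 57.8 TPM, with SNU2535 and NCI-H2228 overlapping. COX7A2, the widely expressed isoform of subunit 7A, measured 88.5 ± 4.25 TPM in SNU2535, 281 ± 12.9 in NCI-H3122 and 99.3 ± 4.04 in NCI-H2228. NCI-H3122 stood apart. The log2 difference between SNU2535 and NCI-H3122 was -1.65 ± 0.05 (SE; limma adjusted p = 1.39e-09). COX7A2L, a related protein known for joining complexes III and IV into supercomplexes, was lowest in SNU2535, at 31.4 ± 0.973 TPM against 70.7 ± 1.71 in NCI-H3122 and 71.7 ± 3.80 in NCI-H2228. NCI-H3122 and NCI-H2228 did not differ in COX7A2L beyond the spread (-0.02 ± 0.04, SE). NDUFA4L2, a paralog of NDUFA4 known to be induced by hypoxia, measured 1.38, 2.14 and 1.25 TPM in SNU2535, 1.19, 0.782 and 0.947 TPM in NCI-H3122, and 9.05, 8.58 and 6.66 TPM in NCI-H2228. It was higher in NCI-H2228 than in NCI-H3122 (log2 difference -2.20 ± 0.16 for NCI-H3122 against NCI-H2228, SE; limma adjusted p = 6.78e-07), and TRI-611 did not change it detectably in the lines where it was tested.

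Complex V summed to 2830 ± 43.0, 3381 ± 28.5 and 2710 ± 60.9 TPM. The 5 genes of the F1 head, which holds the catalytic sites, all had their highest mean in NCI-H3122. Each mean was lower in SNU2535 than in NCI-H3122, with a median log2 difference of -0.56. Each was higher in NCI-H3122 than in NCI-H2228, with a median of 1.12. For ATP5F1C the libraries of SNU2535 (159, 147 and 161 TPM) and NCI-H3122 (175, 160 and 173 TPM) overlapped. ATP5F1A, the alpha subunit, measured 79.5 ± 3.93, 155 ± 1.60 and 62.9 ± 4.68 TPM in SNU2535, NCI-H3122 and NCI-H2228. ATP5F1D measured 138 ± 7.32, 208 ± 4.33 and 95.4 ± 1.25 TPM, ATP5F1E 55.4 ± 2.52, 82.1 ± 1.03 and 30.3 ± 0.294 TPM, and ATP5F1C 156 ± 7.24, 170 ± 8.21 and 132 ± 4.42 TPM. ATP5F1B was the exception in order, lower in SNU2535 (852 ± 7.60 TPM) than in NCI-H2228 (982 ± 22.8), whereas the other 4 were higher. ATP5MF, a membrane subunit, was highest in SNU2535, at 195 ± 9.26 TPM against 134 ± 0.310 and 64.7 ± 0.645. ATP5MPL, another small membrane subunit, measured 66.0, 34.0 and 42.2 TPM. ATP5IF1, the inhibitor of the enzyme, was also highest in SNU2535, at 122 ± 10.5 TPM against 85.4 ± 3.20 in NCI-H3122 and 103 ± 1.24 in NCI-H2228.

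Genes that build and regulate the chain were taken from lists of assembly factors, carriers and regulators. Of 55 assembly factors, 3 rose and 13 fell in SNU2535, 7 rose and 10 fell in NCI-H3122, and 0 rose and 5 fell in NCI-H2228, where 2 higher and 12 lower had an unadjusted limma p below 0.05. The shares called, 29.1%, 30.9% and 9.09%, were near the 28.7%, 34.1% and 11.2% of all genes. Their medians were -0.07, 0.01 and -0.06, against -0.02, 0.05 and 0.01 over all genes. COA5, of complex IV assembly, and ECSIT, of complex I assembly, rose in NCI-H3122 (0.40 and 0.31) and in SNU2535 (0.17 and 0.15), where both calls were lost with the replicate block. COA7, a complex IV assembly factor, fell in all 3 lines: from 71.5 ± 1.92 to 27.4 ± 2.84 TPM in SNU2535 (SD, n = 3), with log2 differences of -1.36, -0.46 and -0.42 in SNU2535, NCI-H3122 and NCI-H2228. NDUFAF4, a complex I assembly factor, fell by 0.67, 0.64 and 0.55, and COA4, of complex IV, fell by 0.19, 0.31 and 0.23. Of the 11 genes of the mobile carriers, 2 rose and 2 fell in SNU2535 (36.4%, against 28.7% of all genes). CYCS, which encodes cytochrome c, fell by 0.31, 0.32 and 0.19 in the 3 lines. COQ8A, needed for coenzyme Q synthesis, rose by 0.89, 0.83 and 0.50. COQ2 also rose in SNU2535 (0.17). In NCI-H3122, where 20.6% of all genes were called higher, COQ5 (0.27), COQ7 (0.22), COQ8B (0.27) and COQ9 (0.27) rose as well. The COQ9 call was lost with the replicate block. CYC1, the cytochrome c1 gene outside the name rule, fell by 0.16 in SNU2535 and by 0.19 in NCI-H2228. COX4I1 and NDUFAB1 passed the test in no line.

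**Figure D5:**
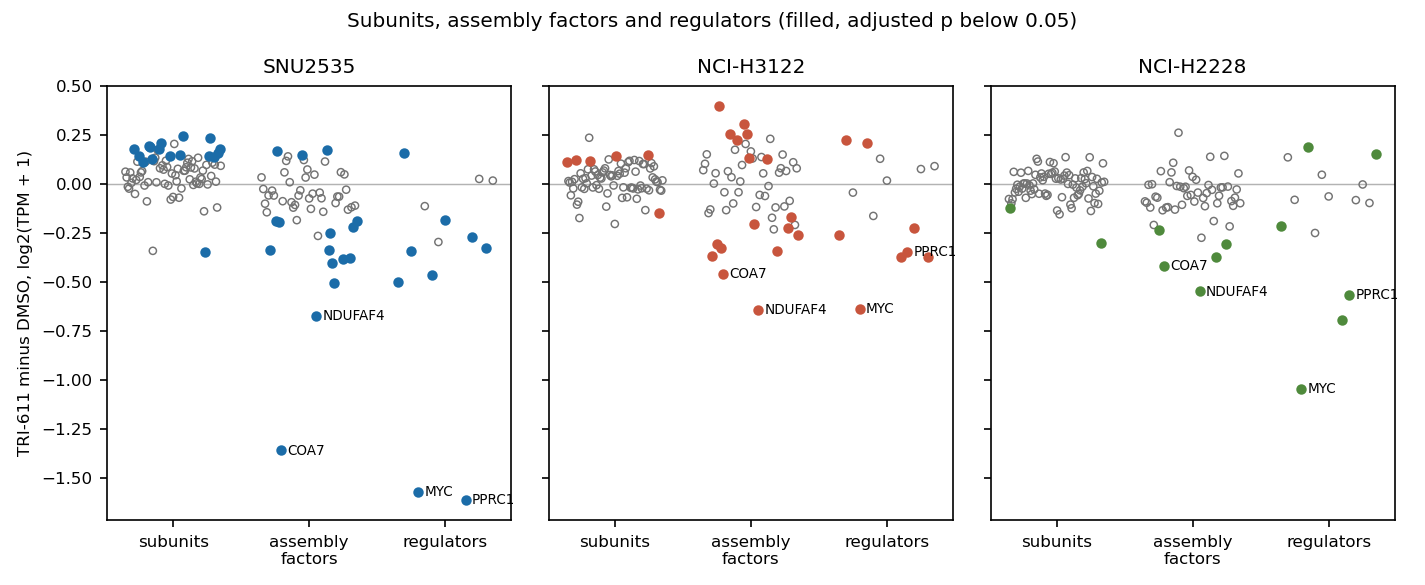
Difference between TRI-611 and DMSO libraries (log2(TPM + 1), vertical axis) of the tested subunit genes, the 55 assembly factors and the tested regulators (horizontal axis) in the 3 lines. Filled points passed limma's adjusted p below 0.05; MYC, PPRC1, COA7 and NDUFAF4 lie below the subunit genes in each panel, while the subunits lie within 0.35 of 0.

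Of the regulators, 1 rose and 8 fell of 13 tested in SNU2535, 2 rose and 6 fell of 14 in NCI-H3122, and 2 rose and 4 fell of 14 in NCI-H2228. The shares of all genes called were 10.7% higher and 18.1% lower for SNU2535, 20.6% higher and 13.4% lower for NCI-H3122, and 4.8% higher and 6.4% lower for NCI-H2228. MYC fell by 1.57, 0.64 and 1.04, and PPRC1 by 1.61, 0.34 and 0.57, in SNU2535, NCI-H3122 and NCI-H2228. ESRRA fell by 0.50, 0.26 and 0.21, the last lost in 9 of 16 alternatives. NRF1 fell in SNU2535 (-0.47), TFAM, which packages and transcribes mitochondrial DNA, fell in SNU2535 (-0.27) and NCI-H3122 (-0.22), and PPARGC1B fell in NCI-H3122 (-0.37) and NCI-H2228 (-0.69). The PPARGC1B call in NCI-H3122 was lost with the replicate block (limma adjusted p = 0.0505) and without DMSO replicate 1 or 3 of that line. GABPA rose in SNU2535 (0.16) and NCI-H3122 (0.22). The 2 rises in NCI-H2228 were YY1 and NFE2L2. YY1 measured 97.3, 96.7 and 100 TPM with DMSO and 112, 105 and 110 TPM with TRI-611 in that line. NFE2L2 measured 58.7, 55.7 and 59.1 TPM and then 68.3, 62.6 and 67.1 TPM. PPARGC1A did not pass the filter in any line. PPARGC1B did not pass it in SNU2535 and was not tested there. Its values in that line were 0.878, 1.16 and 0.928 TPM with DMSO and 0.263, 0.336 and 0.367 TPM with TRI-611, lower without overlap. These lists and the subunit genes were measured in the same libraries after 3 h, and protein levels were not measured.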

How the data were processed

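The 18 libraries were compared in 1 deposited table of TPM values per gene and library. Per the submitters' processing notes, the tools were fastp 0.23.1, STAR 2.5.2b, featureCounts, Subread 1.5.2 and DESeq2, with GRCh38. Not given in the sources used here: the gene annotation, the strand setting, the use of the unique molecular identifiers and how TPM was derived from counts. TPM keeps no depth, so sequencing depth is unknown and no counting interval is given. Between 23766 and 25921 genes were above 0 TPM per library, and replicates of a group correlated at 0.991 to 0.993 (Pearson's r across genes, on the log2 scale).

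On log2(TPM + 1), limma 3.58.1 (R 4.3.3) tested each difference, with trended, robust empirical Bayes, two-sided. A gene was tested where at least 3 libraries of the comparison reached 1 TPM: the 6 libraries of a line for responses, the 9 DMSO libraries for levels, and both lines for response differences. P-values were adjusted by Benjamini-Hochberg over all genes tested with calls made below 0.05. A fold change on this scale understates changes of low genes. The procedure was tested on simulated data with planted 2-fold changes. For the responses in SNU2535, NCI-H3122 and NCI-H2228 it recovered 83.8%, 82.6% and 84.1% of them, and 8.57%, 4.27% and 3.05% of its calls were false. Every subunit response here was smaller than the planted changes, so recovery of changes of that size was not tested. The labels do not say that replicates are separate cultures, so the p-values reflect the spread among these libraries alone, which can be technical.

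Replicate number equals the labelled batch. Same-numbered libraries of the groups of a line deviated from their group means with correlations across genes (batches 1 to 3) of -0.0228, 0.0437 and 0.00966 for SNU2535. The values were -0.0865, -0.029 and 0.0152 for NCI-H3122, then 0.101, 0.00343 and 0.083 for NCI-H2228. Genes are not independent replicates. Since the pairing comes from the label, values from a fit with batch as a block stand beside a result where they change it.

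Positions and exon overlaps came from GENCODE 29 (GRCh38), and promoter windows from RefSeq (GRCh38.p14). Counting without known strand leaves overlapping genes uncertain, and 49 of the 88 members share exon bases with another gene. The members and lists were chosen with earlier results of these data known. Named members are, in each line, the 6 largest rises and falls among those called; per pair of lines, the 4 largest DMSO differences each way and the 2 largest response differences each way; the 4 SDH genes; isoform and paralog members; members called alike in all 3 lines; the near relatives COX4I1, COX4I2 and NDUFAB1; and 8 regulators. Further members are named where a count or complex needs them. Alternatives were other pseudocounts, filters, scalings, moderation and fits, the block, and leaving out each library. Python 3.11.15, pandas 2.3.3, numpy 2.4.6 and matplotlib 3.10.9 were used for the sequences and figures.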

Additional observations from a re-analysis of the deposited data

Results flagged for a closer look

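The response to TRI-611 of 7 subunit genes differed between lines by the test of the difference itself (limma, interaction term, Benjamini-Hochberg over all genes). By pair, 3 members were called for SNU2535 and NCI-H3122, 4 for SNU2535 and NCI-H2228 and 3 for NCI-H3122 and NCI-H2228. Of all genes tested, 20.1%, 10.6% and 14.3% were called for these pairs, a larger share each time. NDUFV3 differed by -0.325 on the log2 scale between SNU2535 and NCI-H3122 (adjusted p = 0.00612) and by -0.275 between SNU2535 and NCI-H2228 (adjusted p = 0.027). The first held in all 22 alternatives and the second in 14 of 22. COX6A1 differed by 0.208 (adjusted p = 0.0291) and 0.218 (adjusted p = 0.0246) for the same pairs, with responses of 0.19, -0.02 and -0.03 in SNU2535, NCI-H3122 and NCI-H2228. Each of the COX6A1 differences was called in 14 of 22 alternatives.

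UQCRH differed by 0.188 between SNU2535 and NCI-H3122 (adjusted p = 0.0309), called in 14 of 22 alternatives, and reads could be split with its near-copy UQCRHL. ATP5F1B differed by 0.157 between SNU2535 and NCI-H2228 (adjusted p = 0.0341), and it fell in NCI-H2228. That difference was called in 10 of 22 alternatives, over which it ranged from 0.0759 to 0.222 (adjusted p from 0.0146 to 0.382). NDUFB7 differed by 0.214 between SNU2535 and NCI-H2228 (adjusted p = 0.0263) and by 0.217 between NCI-H3122 and NCI-H2228 (adjusted p = 0.0177), with responses of 0.11, 0.11 and -0.10 that passed the test in no line alone. These were called in 14 and 21 of 22 alternatives. NDUFB8 differed by 0.242 between NCI-H3122 and NCI-H2228 (adjusted p = 0.0306), called in 13 of 22 alternatives and lost with the replicate block. COX5A differed by 0.169 for that pair (adjusted p = 0.0292), called in 12 of 22.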

How the results depend on the processing

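Members called after TRI-611 in SNU2535 (17) numbered 7 with no filter, 11 with the replicate block, 31 after quantile normalization, 6 with plain empirical Bayes and 6 to 14 without any 1 library. In NCI-H3122 (6) they numbered 2 with no filter, 0 with the block, 10 after median-ratio scaling, 18 after quantile normalization, 18 without mitochondrially encoded genes, 11 with all 18 libraries in 1 fit, 0 with plain empirical Bayes and 1 to 10 without any 1 library. In NCI-H2228 (2) they were 1 with no filter, 1 with the block, 4 after quantile normalization, 4 without mitochondrially encoded genes, 1 with plain empirical Bayes and 1 to 2 without any 1 library. The block moved no other count by over 1.5 times: DMSO calls were 66, 67 and 73, and response differences 3, 5 and 2. Response differences between SNU2535 and NCI-H3122 (3) numbered 1 with no filter, 24 after median-ratio scaling, 11 after quantile normalization, 6 without mitochondrially encoded genes, 6 with all libraries, 1 with plain empirical Bayes and 1 to 5 without any 1 library. Those between SNU2535 and NCI-H2228 (4) numbered 0, 12, 8, 9 and 1 with no filter, median-ratio scaling, quantile normalization, all libraries and plain empirical Bayes, and 0 to 7 without any 1 library. Those between NCI-H3122 and NCI-H2228 (3) numbered 1 after median-ratio scaling and 1 to 4 without any 1 library. The cause of these changes was not tested.

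Median-ratio scaling moved the member median to 0.098 in SNU2535 and reversed it in NCI-H3122 (-0.030). It moved DMSO medians to -0.242, 0.203 and 0.506 (SNU2535 against NCI-H3122, SNU2535 against NCI-H2228, NCI-H3122 against NCI-H2228) and the response differences of SNU2535 to 0.156 and 0.130. Quantile normalization gave medians of 0.119 in SNU2535, 0.039 in NCI-H2228, and -0.181, 0.206 and 0.408 for DMSO. Without mitochondrially encoded genes the first DMSO median was -0.088. Leaving out 1 library gave -0.0693 to -0.0197 for the first and 0.0839 to 0.152 for the second. Under median-ratio scaling the summed ratios in SNU2535 were 1.07 for complex I, 1.11 for complex II and 1.06 for complex V. In NCI-H3122 they were 1.00 for complex I and reversed for complexes III (0.965) and V (0.966). The DMSO differences named as the 4 largest each way per pair kept their calls in each alternative that tested them. For COX6B2, 1 of those between SNU2535 and NCI-H3122, this carries little weight. It passed the filter only through the SNU2535 DMSO libraries. The other DMSO differences were not followed singly. Depth is unknown, so small differences of low genes have no counting limit.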
